A study of Mus musculus with 6 samples.

Results

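The genes described here are 36 genes of ribosomal RNA transcription and ribosome assembly, taken by name from a list and matched by Ensembl identifier to the GENCODE M21 annotation of the mouse genome (build GRCm38). All 36 were found among the 55536 genes listed in each library, and all 36 reached the level required for testing (at least 1 FPKM in at least 3 libraries), as did 10913 genes in all. The libraries came from SVEC4-10, an immortalised mouse cell line labelled as endothelial and grown in medium with serum. The control group was 3 libraries titled as control samples at 24 hours. The treated group was 3 libraries from cells given nattokinase, a bacterial protease that degrades fibrin, for 24 hours. The labels give no dose and do not say whether replicates were separate cultures; p-values then reflect only how these libraries vary, which may be technical.

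Ribosomes are built in the nucleolus. RNA polymerase I, recruited by UBTF and by the initiation factor RRN3, transcribes a long precursor RNA, which small nucleolar ribonucleoproteins (snoRNPs) modify and a large assembly called the small subunit processome folds and cuts, while other factors shape the large subunit. The transcription factor MYC raises the expression of many of these genes, and the pathway is a main consumer of energy in growing cells.

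Between 15044778 and 18341370 reads or fragments per library were assigned to genes, and each of the 36 genes had at least 194 in each library. None of 14 endothelial marker genes reached 1 FPKM in 3 libraries, and 5 of them, among them Tie1, Erg and Cldn5, were at 0 reads in all 6 libraries, and Pecam1 and Cdh5 had at most 3 and 1. Of 4 lymphatic endothelial markers Prox1 and Lyve1 were at 0 reads in all libraries, Flt4 averaged 11.2 and 10.7 FPKM in control and treated libraries, and Pdpn was lower with nattokinase (119 and 102 FPKM, limma adjusted p = 0.027). Of 10 fibroblast and mural markers 6 were tested, and of these only Col3a1 passed, lower with nattokinase (144 and 95.8 FPKM, limma adjusted p = 7.7e-05). Col1a1 had 1403 and 1236 FPKM (limma adjusted p = 0.084). Pdgfra (7.45 and 8.32 FPKM) and Pdgfrb (17.0 and 19.4 FPKM) had all treated libraries above all controls (limma adjusted p = 0.17 and 0.12). Col1a2 and Dcn had overlapping groups. Not tested were Thy1, at 0 reads in all libraries, Rgs5 and Cspg4, with at most 3 reads, and Lum, with at most 10. Of 6 leukocyte markers 5 were at 0 reads and Lyz2 had at most 7. Of 5 epithelial markers Krt8 (3.82 and 4.22 FPKM) and Krt14 (2.84 and 2.85 FPKM) were tested and did not pass, and Epcam and Cdh1 had at most 2 reads and 1 read. The part of these markers in the results below was not tested. FPKM are reads divided by the exon length and by the reads assigned to all genes in the library, and a log2 fold change below is the difference, nattokinase minus control, of the mean log2(FPKM + 1), which understates changes of low genes. Adjusted p-values come from limma over all 10913 genes.

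Most of the nucleolar genes had a log2 fold change slightly above 0 with nattokinase, and none was called lower. Of the 36 genes, 5 rose, namely Myc, Nhp2, Nop58, Wdr43 and Npm1, by 1.15-fold to 1.41-fold in mean FPKM. These 5 are 13.9% of the genes, where 5.61% of all tested genes rose and 8.85% changed in either direction. The test called 0 of the 36 lower, where 3.24% of all tested genes fell. At an unadjusted p of 0.05, 18 were higher and 0 lower, beside 14.2% and 8.67% of all genes. Limma-voom on the recovered reads called 9 of the 36 higher and 0 lower. Of all 10913 genes it called more than limma did, 870 higher and 464 lower. The median log2 fold change of the 36 genes was 0.12, against 0.01 over all genes tested, and 30 of the 36 values lay above 0, as did 54.1% of all values. In 13 genes all 3 treated libraries lay above all 3 controls, and in 1, Polr1a, all lay below, where the same holds for 17.4% and 11.4% of all genes. The nucleolar genes were also more highly expressed than most, with a median control level of 20.8 FPKM against 8.11 over all genes tested, and the part of this in the number of calls was not tested.

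**Figure D1:**
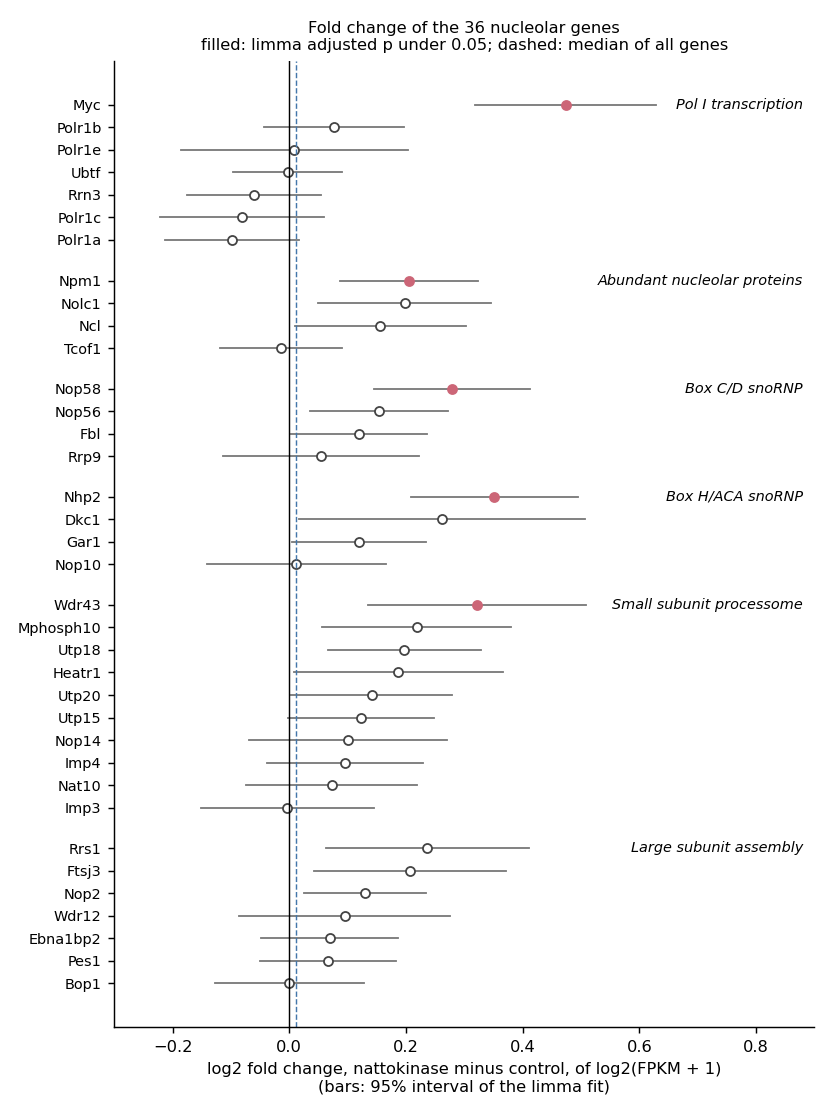
Log2 fold change (x axis, nattokinase minus control) of each of the 36 genes (y axis, grouped by role) with the 95% interval of the limma fit. Filled points are the 5 genes past the threshold; Myc at 0.47 stands apart from the 6 other genes of its group, which lie between -0.10 and 0.08.

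The listed genes of RNA polymerase I and its initiation factors were close to their control levels, unlike Myc, which was grouped with them. Polr1a encodes the largest subunit of the enzyme (Ensembl ENSMUSG00000049553, chromosome 6, 71909053 to 71984935). It measured 11.3, 10.7 and 10.6 FPKM in the control libraries and 10.4, 9.87 and 9.97 FPKM in the treated ones, so the groups did not overlap, but the log2 fold change of -0.10 did not pass the test (limma adjusted p = 0.30, 95% interval -0.21 to 0.02). Polr1b, the gene of the second-largest subunit, had 5.21, 5.45 and 5.24 FPKM in the controls and 5.76, 5.59 and 5.59 FPKM with nattokinase, again without overlap and without passing (limma adjusted p = 0.44). Rrn3, which couples the polymerase to the promoter, measured 25.7, 27.8 and 27.8 FPKM in the controls and 26.8, 26.3 and 24.7 FPKM with nattokinase. These values overlapped, and the interval of the log2 difference ran from -0.17 to 0.05. Ubtf, the architectural factor of active ribosomal DNA, had 20.9, 20.8 and 20.5 FPKM in the controls against 20.8, 20.8 and 20.5 FPKM. The groups overlapped almost fully, with an interval of the log2 difference from -0.10 to 0.09. The subunit genes Polr1c and Polr1e had log2 fold changes of -0.08 and 0.01, with overlapping groups.

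Myc was the member with the largest change. Its level was 22.1, 24.5 and 25.4 FPKM in the controls and 37.0, 32.4 and 31.8 FPKM with nattokinase (chromosome 15, 61985391 to 61990374). All treated values lay above all control values, and the mean rose 1.41-fold, from 24.0 ± 1.70 to 33.8 ± 2.84 FPKM (SD, n = 3; log2 fold change 0.47, SE 0.069, limma adjusted p = 0.0026). The call held in each of the other analyses run, with log2 fold changes from 0.35 to 0.51. Of 11 genes for partners and antagonists of MYC, such as its dimer partner Max and the repressor Mnt, 0 rose and 0 fell with limma. Their median log2 fold change was 0.06. At an unadjusted p of 0.05, 4 were higher and 1 lower, beside 14.2% and 8.67% of all tested genes. Limma-voom called 1 higher and 1 lower.

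**Figure D2:**
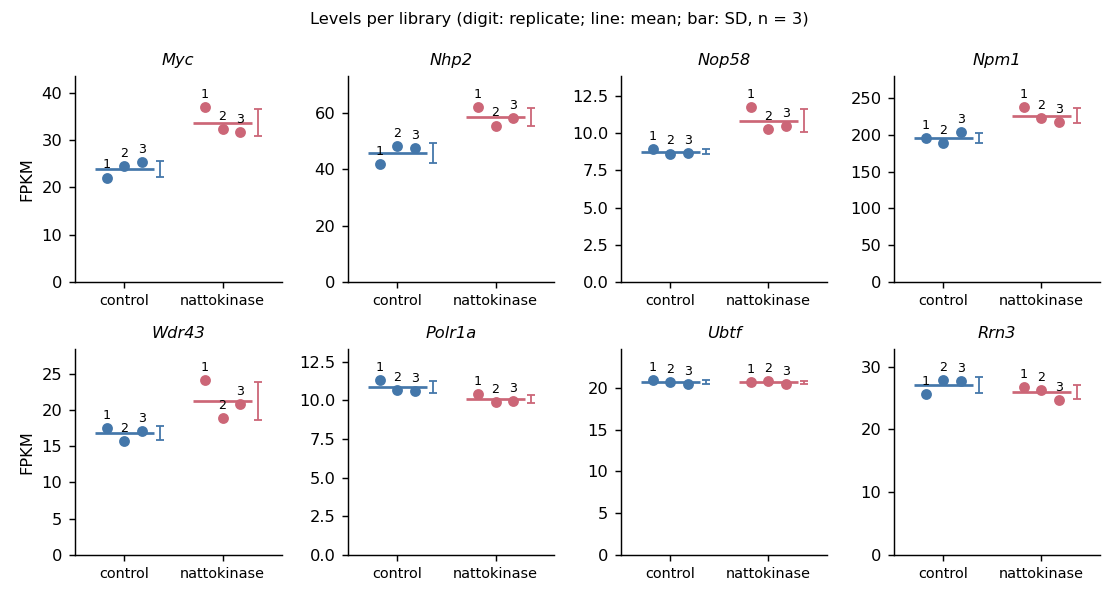
FPKM (y axis, from 0) in each library for the 5 genes that rose and for Polr1a, Ubtf and Rrn3; digits give the replicate, lines the mean and bars the SD of 3 libraries. In Myc, Nhp2, Nop58, Npm1 and Wdr43 the 3 treated points lie above the 3 controls with nattokinase replicate 1 highest, while Ubtf and Rrn3 overlap.

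Of the 4 genes of abundant nucleolar proteins 1 rose, Npm1, beside 5.61% of all tested genes, and 1 call in so short a list says little about the group. Npm1 encodes nucleophosmin, a histone and ribosome chaperone of the outer nucleolus, and was the most highly expressed of the 36 genes. It measured 195, 189 and 204 FPKM in the controls and 238, 223 and 218 FPKM with nattokinase (chromosome 11, 33152287 to 33163206). The groups did not overlap, and the log2 fold change was 0.21 (SE 0.053, limma adjusted p = 0.040). This call depended on the libraries used: leaving out control replicate 2 or 3, or any of the treated libraries, ended it (adjusted p up to 0.15), and it was also lost after rescaling to protein-coding reads (adjusted p = 0.074). Npm1 also shares 24.3% of its 50-base words with transcripts of other annotated genes, so its counts are uncertain to that extent. Ncl, the gene of nucleolin, had 54.3, 47.8 and 50.8 FPKM in the controls and 62.1, 54.7 and 54.0 FPKM with nattokinase. Here control replicate 1 lay above a treated library, and the log2 fold change of 0.16 did not pass the test (limma adjusted p = 0.19). Nolc1, a chaperone of snoRNPs, had a log2 fold change of 0.20 (limma adjusted p = 0.10), and Tcof1, the gene of treacle, a cofactor of Pol I, measured 20.6, 20.9 and 20.8 FPKM against 21.6, 19.9 and 20.3 FPKM (log2 fold change -0.01).

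The snoRNPs carry guide RNAs to sites of rRNA modification. Of their 8 genes 2, Nhp2 and Nop58, rose, beside 5.61% of all tested genes. A count of 2 in a list of 8 says little about the group. Nhp2 encodes a core protein of box H/ACA particles, the class that makes pseudouridine. Its level was 41.8, 48.3 and 47.6 FPKM in the controls and 62.2, 55.7 and 58.5 FPKM with nattokinase (chromosome 11, 51619735 to 51623714). The groups did not overlap, and the mean rose 1.28-fold (log2 fold change 0.35, SE 0.064, limma adjusted p = 0.0082). Without the filter on low values this call was lost (adjusted p = 0.084), as were those of Nop58, Npm1 and Wdr43 (0.10, 0.14 and 0.21). The other genes of the same particle did not pass the test. Dkc1, the pseudouridine synthase gene, had 10.1, 9.73 and 11.8 FPKM in the controls and 15.2, 11.9 and 11.6 FPKM with nattokinase, so that only replicate 1 stood well above the controls (log2 fold change 0.26, limma adjusted p = 0.19). Gar1 had a log2 fold change of 0.12 without overlap (limma adjusted p = 0.20), and Nop10, the smallest of these proteins, measured 38.2, 42.1 and 42.2 FPKM against 44.0, 37.1 and 42.6 FPKM, with a log2 fold change of 0.01.

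Box C/D particles place methyl groups on ribose. Nop58, which encodes a core scaffold of these particles, measured 8.96, 8.64 and 8.67 FPKM in the controls and 11.8, 10.3 and 10.5 FPKM with nattokinase (chromosome 1, 59684971 to 59719044). It rose by 0.28 on the log2 scale (SE 0.060, limma adjusted p = 0.018). The controls were tightly grouped and all lay below the treated libraries. The call was lost without control replicate 2, control replicate 3 or nattokinase replicate 1 (adjusted p = 0.063, 0.057 and 0.055). Its partner gene Nop56 had 39.2, 43.2 and 41.9 FPKM in the controls and 48.6, 45.0 and 45.1 FPKM with nattokinase, a separation that did not pass the test (log2 fold change 0.15, limma adjusted p = 0.11). Fbl, the gene of the methyltransferase fibrillarin, measured 23.8, 24.1 and 25.3 FPKM against 28.1, 25.1 and 26.6 FPKM (log2 fold change 0.12, limma adjusted p = 0.21). Rrp9, the gene of a U3 particle protein, measured 7.43, 8.88 and 8.97 FPKM against 9.21, 8.89 and 8.22 FPKM, which overlap (log2 fold change 0.05). Nop56 and Fbl share 18.6% and 19.7% of their 50-base words with other annotated transcripts, and exons of Nop56, Nop58 and Ncl overlap small RNA genes that lie on the same strand.

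In the small subunit processome 1 of 10 genes rose, beside 5.61% of all tested genes, and a count of 1 in a list of this size says little about the group. Wdr43, a component that acts while the precursor is being transcribed, measured 17.5, 15.7 and 17.1 FPKM in the controls and 24.1, 18.9 and 20.9 FPKM with nattokinase (chromosome 17, 71615895 to 71659031). All treated libraries lay above the controls, nattokinase replicate 1 highest, and the log2 fold change was 0.32 (SE 0.083, limma adjusted p = 0.043). The call held when nattokinase replicate 2 was left out but not when another single library was (adjusted p up to 0.14), nor after protein-coding rescaling, median-of-ratios scaling or quantile normalization (adjusted p = 0.069, 0.052 and 0.054). The 9 other genes, which include Mphosph10, Imp3 and Imp4 of a complex that helps U3 pair with the precursor, had log2 fold changes from -0.00 for Imp3 to 0.22 for Mphosph10. Imp3 measured 32.9, 36.6 and 33.7 FPKM in the controls and 37.5, 33.9 and 31.6 FPKM with nattokinase, which overlap. Utp18 came closest to the threshold, at 11.3, 12.1 and 12.7 FPKM against 14.6, 13.2 and 14.0 FPKM (log2 fold change 0.20, limma adjusted p = 0.070). Of the rest, Utp15 and Imp4 had separated groups, and Heatr1, Utp20, Nop14 and Nat10 did not.

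None of the 7 genes of large subunit assembly passed the limma test. At an unadjusted p of 0.05, 3 were higher, beside 14.2% of all tested genes. Limma-voom called 2 of the 7, beside 870 of all 10913 genes called higher. Rrs1, which helps bring in the 5S particle, had 20.2, 22.7 and 20.5 FPKM in the controls and 27.8, 22.4 and 25.2 FPKM with nattokinase. Its groups overlapped through nattokinase replicate 2 (log2 fold change 0.24, limma adjusted p = 0.099). The genes Pes1, Bop1 and Wdr12 encode a complex needed for maturation of the large subunit, and their log2 fold changes were 0.07, 0.00 and 0.10. Bop1 measured 38.6, 44.0 and 40.6 FPKM against 43.0, 40.1 and 40.0 FPKM, with an interval of the log2 difference from -0.13 to 0.13. The RNA methyltransferase genes Nop2 and Ftsj3 had 0.13 and 0.21, and Ebna1bp2 had 0.07. Pes1 shares 23.3% of its 50-base words with other annotated transcripts.

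The size of the shift differed between libraries of the same treatment. Nattokinase replicate 1 was the highest of the 6 libraries in 27 of the 36 genes and the highest of the treated libraries in 32, whereas it was the highest of 6 in 18.1% of all tested genes. Control replicate 1 was the lowest of the 6 libraries in 15 of the 36. For the counts of 32 and 15 the share over all tested genes was not computed. Whether they are particular to these genes was therefore not tested. The median over the 36 genes of log2(FPKM + 1), less the control mean, was -0.05, 0.03 and 0.02 in the controls and 0.17, 0.07 and 0.12 in the treated libraries. Summed over the genes, the level was 904, 927 and 940 FPKM in the controls and 1090, 989 and 999 FPKM with nattokinase, a sum in which Npm1 weighs most. Without nattokinase replicate 1 the median log2 fold change was 0.09 and 2 genes, Myc and Nhp2, rose. The same 2 rose without control replicate 2 or without control replicate 3, and these 2 with Nop58 rose without nattokinase replicate 3. With both replicates numbered 1 left out, a choice made after seeing the data, the same 5 genes rose, Polr1c fell (log2 fold change -0.18, limma adjusted p = 0.037), and the median was 0.08.

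The share of reads on rRNA-like genes was lower in the treated libraries. The listed rRNA-like genes took 3.97%, 3.51% and 2.55% of assigned reads in the controls and 0.743%, 0.829% and 0.740% with nattokinase. Control and treated libraries were far apart, with means of 3.35% ± 0.72 and 0.771% ± 0.051 (SD, n = 3; exact permutation test, two-sided, p = 0.10, the smallest that 3 against 3 libraries can give). CT010467.1, the one with the largest change, measured 11737, 10697 and 7499 FPKM in the controls and 2128, 2476 and 2153 FPKM with nattokinase (log2 fold change -2.12), and the weakest change was that of Gm26917, from 78.7, 77.3 and 69.2 to 44.0, 40.7 and 42.6 FPKM (log2 fold change -0.81). Lars2, a mitochondrial tRNA synthetase gene counted with the rRNA-like genes, measured 421, 361 and 272 FPKM in the controls and 83.4, 81.6 and 79.1 FPKM with nattokinase (log2 fold change -2.07). Gm23935 measured 99950, 77023 and 64803 FPKM in the controls and 18935, 19659 and 18404 FPKM with nattokinase (log2 fold change -2.06). Gm15564 measured 170, 134 and 107 FPKM in the controls and 33.5, 31.3 and 30.3 FPKM with nattokinase (log2 fold change -2.05). In each of these genes all treated libraries lay below all controls. These 5 passed the limma test, and the other matched genes of the list, Gm42418 and AY036118, were at 0 reads in all libraries and were not tested. Both lie within the span of CT010467.1 on chromosome 17. How reads on overlapping genes were counted is not stated, so their 0 reads do not show that such RNA was absent. The calls held in the other analyses, with 2 exceptions. CT010467.1 did not pass with both replicates numbered 1 left out (limma adjusted p = 0.079). Gm23935 did not pass after quantile normalization. That method gives equal ranks equal values in each library, so it cannot show a change in a gene that keeps its rank. Beside this lower share, 0 of the 36 transcription and assembly genes were called lower and 5 higher, where 3.24% and 5.61% of all tested genes were. Against a share of 3.24%, a count of 0 in 36 genes says little. The median log2 fold change was 0.12 over the 36 genes and 0.01 over all genes tested. In the 7 genes of Pol I transcription it was -0.003, with 3 values above 0 and 4 below. Among the controls, replicate 1 had the highest rRNA-like share and the lowest median of the 36 genes. Among the treated libraries, the library with the highest median, replicate 1, had nearly the same share as replicate 3. With 2 groups this far apart, no correlation over the 6 libraries is given. FPKM divide by all assigned reads, so a smaller rRNA-like share raises the FPKM of every other gene. With library totals taken over protein-coding genes only, rRNA-like ones left out, 3 of the 36 genes, Myc, Nhp2 and Nop58, rose, 0 fell, and the median was 0.08, while the median of all genes moved from 0.01 to -0.02. Of all 10913 genes tested, 460 rose and 520 fell with these totals. Neither poly(A) selection nor removal of rRNA is stated in the labels, so the rRNA content of the cells and that of the libraries cannot be told apart here, and reads on these genes do not measure the rate of transcription by Pol I.

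**Figure D3:**
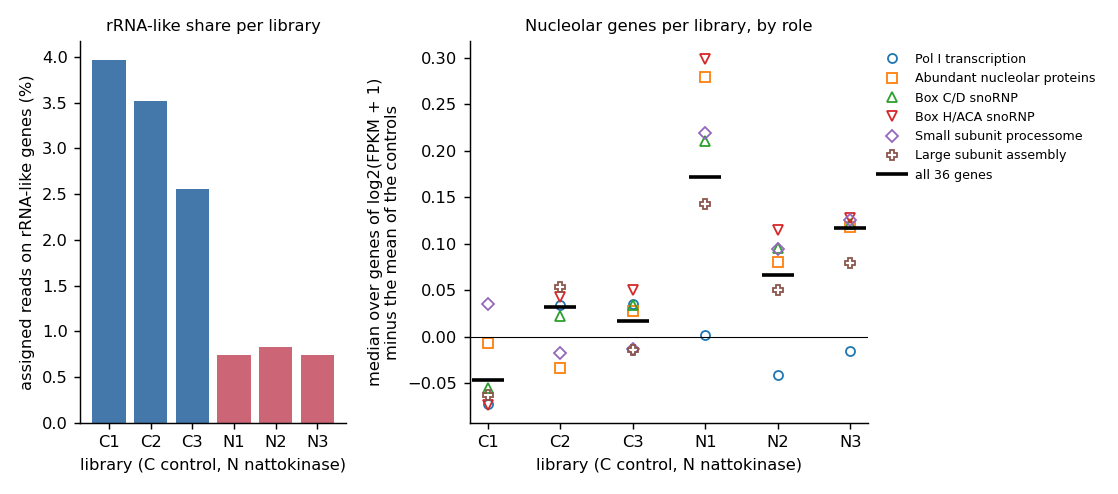
Left, percent of assigned reads on rRNA-like genes in each library (C control, N nattokinase). Right, for the same libraries, the median over genes of log2(FPKM + 1) minus the control mean, for all 36 genes (bar) and for each role (symbols). Over all 36 genes the treated libraries, with shares under 1%, have the higher medians, 0.07 to 0.17. The Pol I group stays near 0, and the large subunit group is at 0.050 in nattokinase replicate 2, below its 0.053 in control replicate 2.

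Among related lists, the count of genes that rose was above the share of all tested genes (5.61%) mainly in large subunit assembly. Of 45 other large subunit assembly factors 6 (13.3%) rose and 0 fell with limma, with a median log2 fold change of 0.10. Sbds, whose protein helps release the factor eIF6 from new large subunits, rose from 24.3 ± 0.41 to 30.2 ± 2.32 FPKM (SD, n = 3; limma adjusted p = 0.010), and Gnl3, the gene of nucleostemin, rose from 8.15 ± 0.78 to 10.8 ± 0.56 FPKM (limma adjusted p = 0.012). Rsl1d1, a nucleolar protein gene, had a log2 fold change of 0.27. Without nattokinase replicate 1 the number of these factors that rose was 2, and without control replicate 2 or nattokinase replicate 3 it was 3. Of 38 other small subunit factors 2 (5.26%, close to the share of all genes) rose and 0 fell, with a median of 0.11, namely Tsr1 (log2 fold change 0.24) and Ltv1 (0.20), which act late in 40S maturation. Neither rose without control replicate 2, nattokinase replicate 1 or nattokinase replicate 2. Of 15 other Pol I subunits and initiation factors, with a median of 0.05, 1 (6.67%) rose, Polr2k, a small subunit shared with the other nuclear polymerases (log2 fold change 0.20, limma adjusted p = 0.037), and its call was lost with limma-voom. Of 14 exosome and trimming genes, with a median of 0.08, 1 (7.14%) rose, the helicase gene Mtrex (log2 fold change 0.24), and this call held without control replicate 1 but not without any of the 5 other libraries. Of 9 snoRNP assembly factors 0 rose and 0 fell with limma or limma-voom (2 and 0 at an unadjusted p of 0.05).

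Genes of RNA polymerase III, which makes 5S rRNA and tRNA, and of ribosomal proteins had medians of 0.02 and 0.01, beside 0.01 over all genes. Of 15 Pol III genes 1 fell, Polr3k, a small subunit of the enzyme, from 18.4 ± 0.74 to 14.2 ± 0.70 FPKM (SD, n = 3; limma adjusted p = 0.0033; log2 fold change -0.35), and 0 rose (1 at an unadjusted p of 0.05, 0 with limma-voom). The call of Polr3k held in each of the other analyses run and was the only call in that list. Of 79 tested ribosomal protein genes 0 rose and 0 fell with limma and with limma-voom (2 and 0 at an unadjusted p of 0.05), with a median log2 fold change of 0.01 and values from -0.09 to 0.14. Their summed level was 21223, 24401 and 25053 FPKM in the controls and 24503, 22698 and 23067 FPKM with nattokinase, so that control replicate 1 was the lowest library and the groups overlapped. With both replicates numbered 1 left out, 30 ribosomal protein genes fell and 0 rose, with a median of -0.09, so the absence of calls in this list rests on those libraries. Many ribosomal protein genes have processed pseudogene copies, and their counts are uncertain to that extent. The U3 snoRNA genes and Rmrp, 12 identifiers in all, had 0 reads in each library, which allows up to 3 reads per library for counting error alone. How reads matching several genes were counted is not stated, so these 0 reads do not show that the RNAs were absent.

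**Figure D4:**
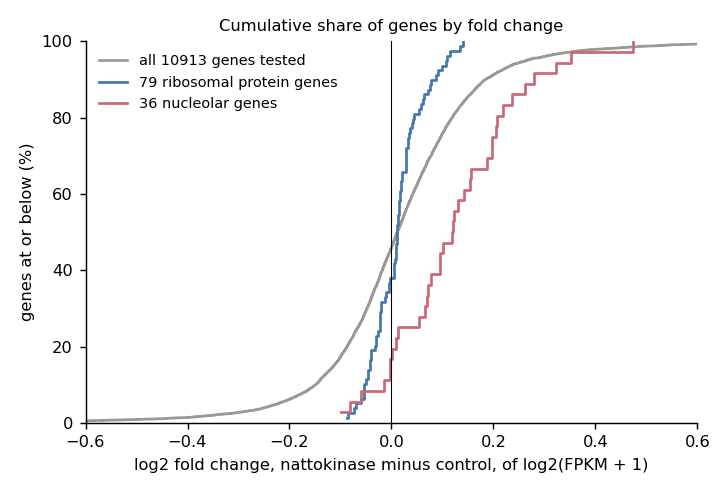
Percent of genes (y axis) at or below each log2 fold change (x axis, nattokinase minus control) for all 10913 genes tested, the 79 ribosomal protein genes and the 36 nucleolar genes. The curve of the nucleolar genes lies to the right, with a median of 0.12, and that of the ribosomal protein genes is narrow around its median of 0.01.

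**Figure D5:**
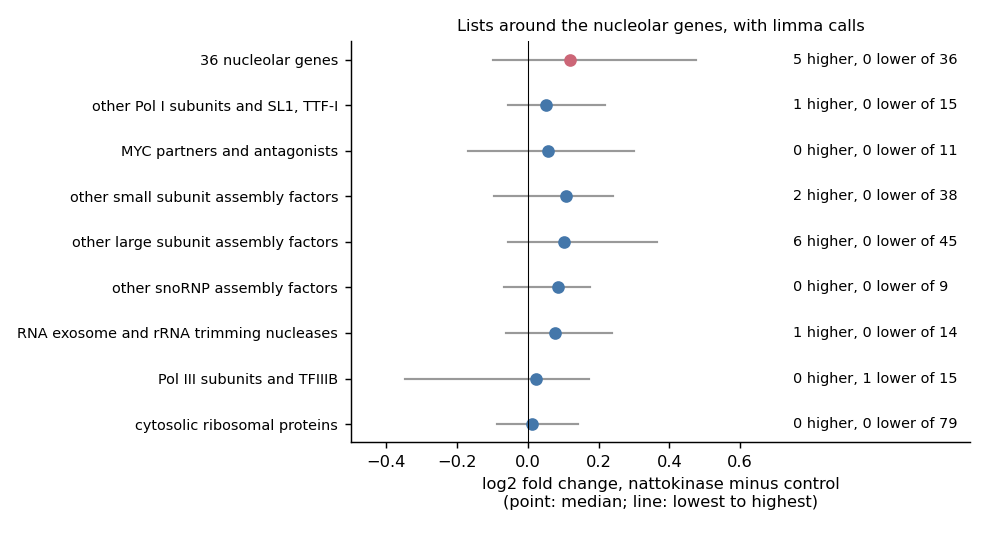
Median (point) and lowest to highest value (line) of the log2 fold change (x axis, nattokinase minus control) for the 36 nucleolar genes and the related lists (y axis), with the number called by limma at the right. The small and large subunit assembly lists have medians of 0.11 and 0.10, and the Pol III and ribosomal protein lists have medians of 0.02 and 0.01.

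The promoters of the genes were searched for the letters CACGTG, the E-box that MYC with MAX binds, which reads the same on both strands. RefSeq's promoter table for GRCm38.p6 (250 bases before to 50 after each annotated start) held 30 of the 36 genes. Of these, 7 (23.3%) had the motif, namely Rrn3, Imp4, Nop2, Utp18, Pes1, Utp20 and Wdr43, where 12.3% of the 8238 tested genes in the table and 8.09% of all 27025 genes in it did. Rrn3 was the only one with 2 copies, and its level did not pass the test. Among the genes that rose, Wdr43 had the motif, Nhp2 and Nop58 did not, and Myc and Npm1 were not in the table. Genes with and without the motif had median log2 fold changes of 0.13 and 0.10. A match is a description of these letters and not of binding. The 250 bases before the start of Rrn3 are shown for its 2 copies, and those of Nhp2 and Nop58 as the promoters of genes that rose without the motif; capitals mark CACGTG, and all sequences run 5′ to 3′ along the gene's strand. Rrn3 is at chr16:13780449-13780698, Nhp2 at chr11:51619523-51619772 and Nop58 at chr1:59684756-59685005, each on the plus strand. The starts are RefSeq's. In Nhp2 and Nop58 they lie inside the M21 gene spans given above, so the last bases shown fall within those spans.
Rrn3: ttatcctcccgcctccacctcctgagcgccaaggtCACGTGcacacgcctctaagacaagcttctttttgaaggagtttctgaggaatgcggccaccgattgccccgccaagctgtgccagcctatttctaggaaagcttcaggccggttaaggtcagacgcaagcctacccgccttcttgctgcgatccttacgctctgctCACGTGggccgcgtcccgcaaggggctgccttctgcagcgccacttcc
Nhp2: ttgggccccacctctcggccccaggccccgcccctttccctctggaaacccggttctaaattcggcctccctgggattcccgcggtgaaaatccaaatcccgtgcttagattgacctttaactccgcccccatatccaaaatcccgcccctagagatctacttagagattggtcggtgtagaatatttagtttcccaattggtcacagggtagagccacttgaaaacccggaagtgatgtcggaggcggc
Nop58: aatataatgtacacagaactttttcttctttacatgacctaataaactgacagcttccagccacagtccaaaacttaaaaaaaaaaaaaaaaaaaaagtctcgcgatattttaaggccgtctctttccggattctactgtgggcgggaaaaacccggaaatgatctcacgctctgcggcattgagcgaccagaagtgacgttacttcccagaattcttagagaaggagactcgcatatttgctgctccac

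The other 6 genes had 1 copy each, shown with the bases beside it. Counted from RefSeq's annotated start, the motif began 121 bases before it in Imp4, 60 before in Nop2 and 20 before in Utp18. In Pes1, Wdr43 and Utp20 it began at transcribed base 3, 18 and 38. The windows are chr1:34439696-34439725 (plus strand) for Imp4, chr6:125131811-125131840 (plus) for Nop2, chr11:93885769-93885798 (minus) for Utp18, chr11:3963965-3963994 (plus) for Pes1, chr17:71616220-71616249 (plus) for Wdr43 and chr10:88826765-88826789 (minus) for Utp20.
Imp4: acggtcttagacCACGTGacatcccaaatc
Nop2: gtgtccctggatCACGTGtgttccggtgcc
Utp18: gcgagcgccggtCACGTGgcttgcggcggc
Pes1: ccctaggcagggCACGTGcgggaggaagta
Wdr43: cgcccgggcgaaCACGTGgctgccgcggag
Utp20: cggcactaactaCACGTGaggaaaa
The bases beside the motif differ from gene to gene, and only Wdr43 among these genes rose.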

How the data were processed

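RNA sequencing values of 6 libraries were used, grouped by their titles. Per the labels, total RNA was extracted and standard Illumina libraries were made. The submitters' processing notes name, without roles, HISAT2 2.1.0, Trimmomatic 0.38, DESeq2 1.22.1, featureCounts 1.6.0, CASAVA and quality reports (MultiQC, FastQC), and a human build (GRCh38), although all 55536 identifiers are mouse genes of GENCODE M21. The authors deposited FPKM: dividing each by its value for 1 read, from merged exon length and library depth, gave whole reads for 100% of values (within 0.05). The files held 0 columns of other samples. Depth limits apply to counting only: 3 reads on a 2 kb gene equal 0.082 to 0.10 FPKM.

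On log2(FPKM + 1), limma 3.58.1 in R 4.3.3 (trended, robust variance; two-sided) tested every gene that reached 1 FPKM in 3 or more libraries, with Benjamini-Hochberg adjustment and a threshold of 0.05. The scripts were tested on simulated data. The 36 genes and the related lists were chosen with earlier results of these data known. Named are all genes past the threshold, 8 fixed genes, the extremes of each role and up to 3 genes per list and direction; others, among them Polr1c, were named after their values were seen. Rn18s-rs5 is a synonym of a listed gene and Nopchap1 found no match. Of the 36 genes, 14 have exons overlapping another gene (38.9%, against 35.7% of tested genes), and strand use is not stated. Shared words are 50-base stretches of M21 transcripts. Alternatives were pseudocounts of 0.1 and 0.5, other filters, 3 scalings, limma-voom on recovered reads, leaving out each library, and a block for replicate number. Leaving out both replicates numbered 1, and an rRNA-like list with Gm24187 and Gm24270, were added after seeing the data. Replicates of a group differed by more than counting error (mean chi-square per gene 2.56 to 12.2). Figures were drawn with matplotlib 3.10.9.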

Additional observations from a re-analysis of the deposited data

How the results depend on the processing

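Over all genes, 612 rose and 354 fell. Without a filter on low values 221 rose and 109 fell, and leaving out 1 library gave 330 to 726 and 193 to 481. Among the left-out libraries, counts dropped most without nattokinase replicate 2 (330 rose, 198 fell), nattokinase replicate 3 (342 rose, 197 fell), control replicate 2 (362 rose, 193 fell) and control replicate 3 (415 rose, 209 fell). Rescaling to protein-coding totals changed the split from 63.4% of calls higher to 46.9% (460 higher, 520 lower). With limma-voom 870 rose and 464 fell, and with quantile normalization 547 rose and 463 fell. With both replicates numbered 1 left out 778 rose and 647 fell.

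Of the 36 genes, 5 rose in the main analysis, 1 without the filter on low values (Myc), 3 after rescaling to protein-coding totals, 3 after quantile normalization, 9 with limma-voom, which added Ftsj3, Nolc1, Rrs1 and Utp18, and 2 to 6 when 1 library was left out. With 1 library left out 0 fell, as in each other analysis except that 1 fell with both replicates numbered 1 left out. The median of the 36 genes ran from 0.08 to 0.14, and no called gene changed direction. Of the 36 genes, 8 that passed in none of these analyses (Bop1, Nop10, Polr1e, Imp3, Ubtf, Rrp9, Tcof1 and Wdr12) changed sign, in 31 fits in all. In the related lists 10 genes rose and 1 fell. Without the filter 0 rose, after protein-coding rescaling 5 rose, and leaving out 1 library gave 3 to 10 that rose and 1 to 3 that fell. With quantile normalization 2 fell, with limma-voom 2 fell, and with both replicates numbered 1 left out 34 fell, of which 30 encode ribosomal proteins. The cause was not tested. The rRNA-like share differed by -2.97 to -2.26 percentage points over the choices of genes and left-out libraries.

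Deviations of same-numbered libraries from their group means correlated at -0.089, -0.044 and -0.059, and those of different-numbered libraries at -0.043 to 0.094. No deviation shared by replicate number was seen, but with 3 libraries per group these values cannot show whether the replicates were paired. With the replicate block 439 genes rose and 249 fell, and 4 of the 36 genes rose, Npm1 not among them (adjusted p = 0.12). The lowest count of any of the 36 genes in a library was 194 reads, and how much of the error is counting error was not tested.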
